A study of Homo sapiens with 9 samples.

Results

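The G2 and mitosis genes are a set of 55 genes chosen by name: cyclins and kinases that start mitosis, the spindle checkpoint, kinesins, spindle and cytokinesis proteins, and proteins that shape chromosomes. All 55 were found among the 60671 rows of the expression table, and all 55 passed the filter on low values, under which 16996 genes were tested. The study sequenced polyA RNA from AC16 cells, an established human line made by fusing adult ventricular heart cells with a fibroblast line, in 3 groups of 3 libraries. The groups were AC16 cells kept in high glucose with added chrysin, a flavone found in plants and honey; AC16 cells kept in high glucose alone; and AC16 cells kept in low glucose. Sample names of the chrysin group begin with Bai, which the sources used here do not explain, and the treatment label was followed. The sources used here do not give the glucose concentrations, the dose of chrysin, a vehicle or the times. Nor do the labels say whether a group's libraries came from separate cultures, and the p-values measure spread between libraries that could be technical repeats.

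These genes form a programme that dividing cells switch on in G2 and switch off after division. Cyclin B with the kinase CDK1 drives entry into mitosis, the kinases PLK1, AURKA and AURKB build and correct the spindle, and the anaphase-promoting complex then marks cyclin B and securin for destruction. Many of the genes are repressed in resting cells by the DREAM complex and activated in G2 by B-MYB and FOXM1. These factors act through a promoter element called the cell cycle genes homology region (CHR). Many of the promoters also hold a separate element, the CCAAT box. Adult heart muscle cells divide rarely and hold little of this RNA, whereas AC16 cells divide in culture. In bulk RNA, a smaller share of cells in G2 and mitosis and less of each transcript per such cell cannot be told apart.

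Promoters are shown for these shared elements. Those of CDK1, CCNB1, CCNB2, PLK1, CDC25C and CCNA2 were chosen by name whatever their values, and those of KIF20A and INCENP for their large changes. The windows below are the 130 bases before the RefSeq start (GRCh38.p14), 5′ to 3′ on the gene's strand. Capitals mark the CCAAT box, which reads ATTGG when it lies on the other strand, and the CHR, searched in its TTTGAA form on both strands and in its TTTAAA form, which is the same on either strand. CDK1 has 2 starts in the table and CDC25C has 4, and the start with the most matches is shown for each. In the CCNA2 window a CCAAT box was matched but neither CHR form searched. Other forms of the CHR were not searched, so this does not show that CCNA2 lacks one. Each of the other 7 windows holds matches to a CCAAT box and a searched CHR form.
CDK1, chr10:60778348-60778477 (+): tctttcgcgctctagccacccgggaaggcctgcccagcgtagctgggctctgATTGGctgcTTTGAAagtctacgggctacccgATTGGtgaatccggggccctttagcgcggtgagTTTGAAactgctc
CCNB1, chr5:69167020-69167149 (+): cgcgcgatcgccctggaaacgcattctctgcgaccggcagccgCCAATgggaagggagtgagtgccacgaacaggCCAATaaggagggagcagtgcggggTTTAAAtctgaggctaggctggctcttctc
CCNB2, chr15:59105016-59105145 (+): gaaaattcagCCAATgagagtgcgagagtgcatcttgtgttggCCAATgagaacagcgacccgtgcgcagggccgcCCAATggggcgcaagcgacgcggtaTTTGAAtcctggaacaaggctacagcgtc
PLK1, chr16:23678759-23678888 (+): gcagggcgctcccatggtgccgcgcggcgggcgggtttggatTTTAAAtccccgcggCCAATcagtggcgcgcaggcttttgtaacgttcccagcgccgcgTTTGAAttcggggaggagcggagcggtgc
CDC25C, chr5:138331805-138331934 (-): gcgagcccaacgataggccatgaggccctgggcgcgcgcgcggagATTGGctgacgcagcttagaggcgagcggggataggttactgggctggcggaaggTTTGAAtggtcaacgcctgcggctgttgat
CCNA2, chr4:121823884-121824013 (-): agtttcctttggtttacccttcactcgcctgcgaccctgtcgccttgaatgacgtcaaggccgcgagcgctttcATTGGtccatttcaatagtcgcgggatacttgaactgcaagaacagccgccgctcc
KIF20A, chr5:138178982-138179111 (+): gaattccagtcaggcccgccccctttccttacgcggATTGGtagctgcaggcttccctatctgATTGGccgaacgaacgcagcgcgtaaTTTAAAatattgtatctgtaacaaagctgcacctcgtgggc
INCENP, chr11:62123881-62124010 (+): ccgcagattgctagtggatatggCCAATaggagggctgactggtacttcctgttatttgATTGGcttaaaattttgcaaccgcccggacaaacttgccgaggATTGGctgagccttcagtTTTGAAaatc

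RefSeq promoters, each running from 250 bases before to 50 bases after a start, were matched to 47 of the 55 members and gave 60 windows, since some genes have several starts. AURKA, BIRC5, BUB3, FOXM1, RACGAP1, TPX2, TTK and UBE2C were not matched. A CCAAT box stood in 44 of the 60 member windows (73.3%), against 34.6% of all 35116 windows of the same length. The CHR letters TTTGAA stood in 65.0% of member windows, against 15.2% of all windows, and TTTAAA in 28.3%, against 12.2%. Both a CCAAT box and either CHR were present in 36 of the 60 member windows (60.0%), against 9.27% of all windows. These are letter matches counted by window on both strands, where overlapping matches count as present; they are a description of sequence and not a test of binding. The 8 promoters shown include those of KIF20A and CCNB2, which were lowest with chrysin, and of INCENP, which was highest with chrysin, as described below under their roles.

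Library depth, recovered from the steps of the FPKM values (fragments for each kilobase of transcript, relative to all fragments in the library), ran between 18171842 and 23024300 gene-assigned reads. These recovered numbers are lower bounds. Apart from NUSAP1 and PRC1, each member rested on at least 351 reads in every library. The label of a cardiomyocyte line was checked against marker genes: of 12 cardiomyocyte markers only GATA4 averaged at least 1 FPKM, and MYL2 and NKX2-5 were listed at 0 in every library. All 10 fibroblast markers averaged at least 1 FPKM. Their summed level ran from 6945 to 7102 FPKM with chrysin, from 9894 to 10301 FPKM in high glucose and from 8578 to 8843 FPKM in low glucose, and its part in the results below was not tested. The 4 endothelial markers summed to at most 1.21 FPKM in any library. Of 4 epithelial markers 3 averaged at least 1 FPKM (KRT8, KRT18 and EPCAM), summing to 233 to 243 FPKM with chrysin, 331 to 362 FPKM in high glucose and 300.2 to 314 FPKM in low glucose. Of 4 leukocyte markers CD14 alone did, and the sums were 2.64 to 2.83, 4.65 to 5.13 and 2.73 to 3.28 FPKM in chrysin, high glucose and low glucose libraries; the part of these lists was not tested either.

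High glucose library 1 differed from high glucose libraries 2 and 3 by transcript length. The same comparison was not made for the other libraries. Among the 20 members whose longest transcript has at least 4000 bases, 19 were lower in it than in the mean of high glucose libraries 2 and 3, with a median log2 difference of -0.15. The 35 shorter members had a median of -0.00, and 18 of them were lower. Among all genes tested with a length, 3886 of 5752 long ones were lower, with a median of -0.06. Of the 10584 shorter ones 4304 were lower, with a median of 0.03. Across the 55 members of these 3 libraries the difference correlated with log2 transcript length at Pearson r = -0.693, and across all 16336 genes with a length at -0.094; both are descriptions. The long members CENPF and ASPM had 148 and 36.2 FPKM in library 1, against 174 and 174 FPKM for CENPF and 42.6 and 43.6 FPKM for ASPM in libraries 2 and 3. Values without this library are given below for each member call that its omission changed.

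**Figure D1:**
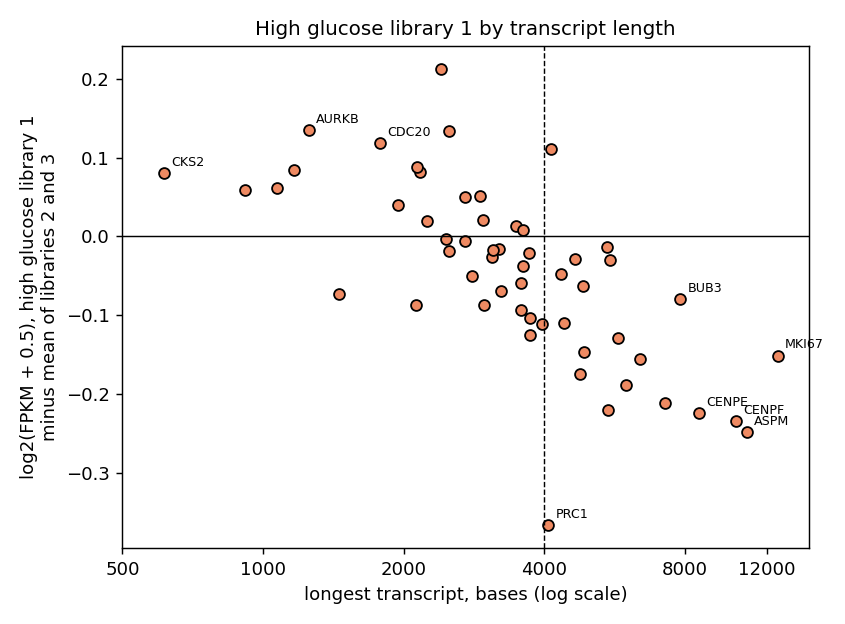
Each point is 1 of the 55 members; the x axis gives the longest transcript in bases on a log scale and the y axis the log2(FPKM + 0.5) difference of high glucose library 1 from the mean of high glucose libraries 2 and 3. Of the 20 members right of the dashed line at 4000 bases, 19 lie below 0.

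Levels per length spanned a wide range. ANLN, an actin-binding protein of the contractile ring, was the highest member at 525 to 537 FPKM with chrysin, 502 to 569 FPKM in high glucose and 513 to 514 FPKM in low glucose. In all, 25 members averaged at least 100 FPKM over the 9 libraries and 53 averaged at least 10 FPKM. The 55 members together took 1.10% to 1.11% of recovered reads with chrysin, 1.16% to 1.21% in high glucose and 1.06% to 1.07% in low glucose, so the high glucose libraries held the largest shares and the 3 groups did not overlap.

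In high glucose against low glucose, 29 of the 55 members rose and 0 fell (limma on log2(FPKM + 0.5), Benjamini-Hochberg adjusted p under 0.05 over all genes tested). Across all genes tested, 23.5% passed, 14.6% as rises and 8.91% as falls; among the 8314 genes that averaged 10 FPKM or more, a level 53 members reached, 22.5% rose and 13.5% fell. The members' median log2 fold change was 0.14, beside 0.02 for all genes tested. At an unadjusted p under 0.05, 37 members were higher and 1 was lower, and limma voom on recovered reads called 32 higher and 1 lower, which was BUB3. For 35 members all 3 high glucose libraries lay above all 3 low glucose libraries (22.5% of all genes tested), and for 1 member they lay below (15.4%). Without high glucose library 1, 37 members rose, beside 2315 of 17037 genes tested. With a correction for GC content and transcript length, chosen after the data were seen, 40 members rose, beside 2687 of 16996 genes. Median-of-ratios scaling called 26 members higher and 1 lower, and over all genes 1990 higher and 1870 lower, beside 2488 and 1514 without it. Of the 29 rises, 21 passed an adjusted p of 0.05 under each of 18 other settings of the analysis. A stricter threshold of 0.01 is not among these 18, and 20 rises passed it.

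With chrysin against high glucose, 30 members fell and 6 rose. Among all genes tested 45.8% passed, of which the falls made 20.9% of the genes and the rises 24.9%; among the genes with at least 10 FPKM, 28.4% fell and 31.4% rose. The median log2 fold change of the members was -0.12, beside 0.03 for all genes tested. All chrysin libraries lay below all high glucose libraries for 31 members (24.5% of all genes tested) and above them for 8 (29.8%). Falls that passed under each of the 18 other settings numbered 23 of 30, and such rises numbered 4 of 6.

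With chrysin against low glucose the members split, with 19 higher and 14 lower. Among all genes tested 51.0% passed, 29.7% as higher and 21.3% as lower. Among the genes with at least 10 FPKM, 37.3% were higher and 28.7% lower, so the members' counts lie near these shares. The members' median log2 fold change of 0.05 equalled that of all genes tested at this rounding. With median-of-ratios scaling the split was 15 higher and 17 lower, and the median was -0.01. Groups did not overlap for 38 members, with chrysin above for 22 (34.6% of all genes tested) and below for 16 (25.4%). The 3 comparisons share libraries, so each member's values in them are given side by side and no relation between the comparisons is drawn.

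**Figure D2:**
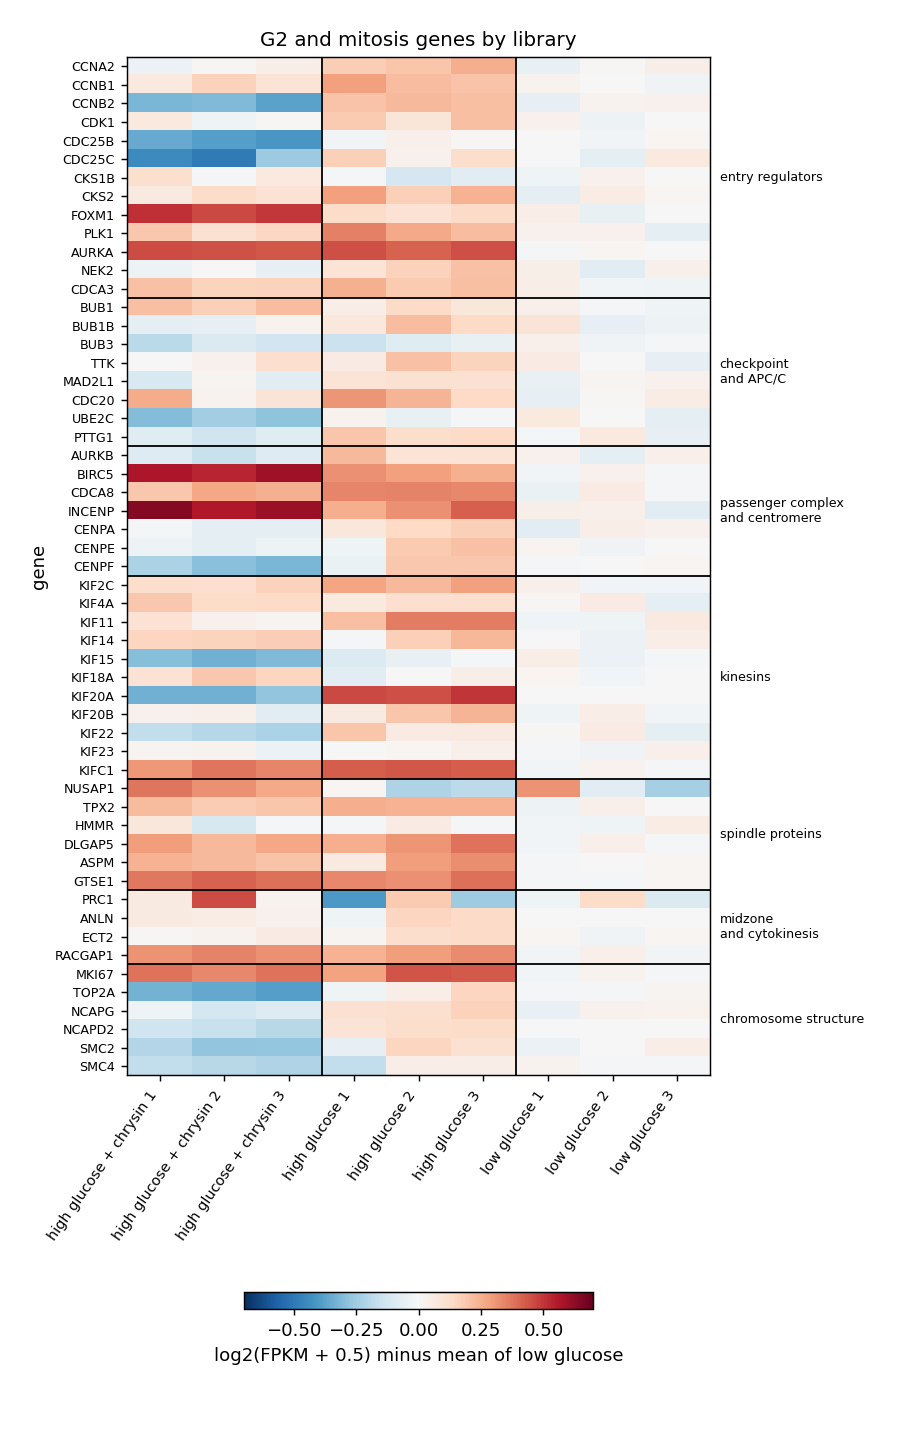
Each row is a member, grouped by role, and each column a library; colour gives log2(FPKM + 0.5) minus the mean of the 3 low glucose libraries, red higher and blue lower. The high glucose columns are mostly red, while the chrysin columns mix red rows such as INCENP and BIRC5 with blue rows such as CDC25C, TOP2A and KIF20A.

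**Figure D3:**
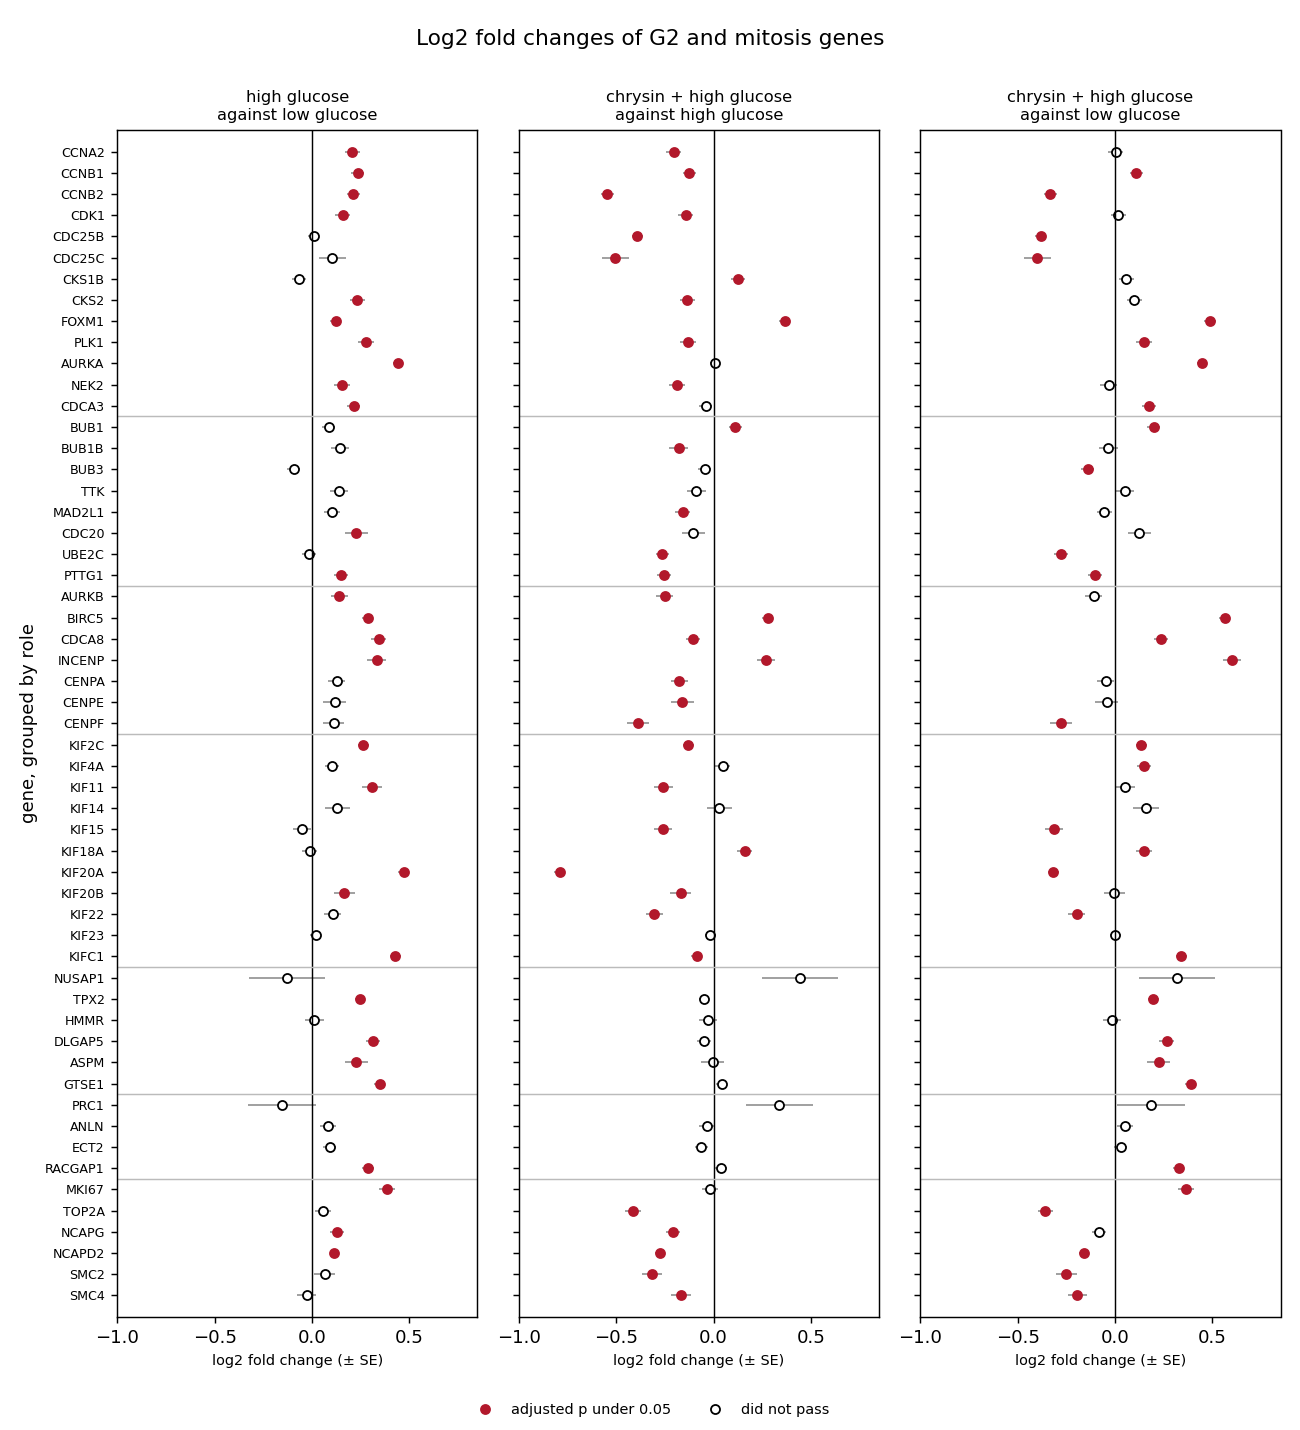
Points are log2 fold changes of the 55 members on the log2(FPKM + 0.5) scale with bars of ± SE, in the 3 comparisons of 3 against 3 libraries; filled points passed an adjusted p of 0.05. Filled points lie right of 0 in the high glucose against low glucose panel, where 29 members rose and 0 fell, and mostly left of 0 in the chrysin against high glucose panel, where 30 fell and 6 rose.

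Among the 13 regulators of mitotic entry, 10 rose and 0 fell in high glucose against low glucose, by the unadjusted p and voom as well as by the main test. With chrysin 9 fell and 2 rose against high glucose, and 5 were higher and 3 lower than in low glucose. For this and every role group below, the shares of all genes tested belong beside the counts. They are 14.6% higher and 8.91% lower in high glucose against low glucose. With chrysin they are 24.9% and 20.9% against high glucose, and 29.7% and 21.3% against low glucose. The groups are small, and a count near its share is not read as a result about the role. Here the 5 and 3 are such counts. CCNB1, cyclin B1, had 330, 352 and 336 FPKM with chrysin, 384, 365 and 361 FPKM in high glucose, and 320, 314 and 309 FPKM in low glucose. The 3 groups did not overlap, with high glucose highest and low glucose lowest. Its log2 fold change was 0.23 ± 0.032 (SE) in high glucose against low glucose (adjusted p = 0.00055), -0.12 with chrysin against high glucose (adjusted p = 0.009) and 0.11 with chrysin against low glucose (adjusted p = 0.015). The last of these did not pass without low glucose library 3 (0.057) or chrysin library 2 (0.067), nor with median-of-ratios scaling (0.20). CCNB2, cyclin B2, had 74.0, 74.7 and 71.3 FPKM with chrysin, 106, 108 and 107 FPKM in high glucose, and 88.9, 94.1 and 94.5 FPKM in low glucose. Here the chrysin libraries were the lowest of all 9. CCNB2 rose by 0.21 ± 0.033 in high glucose against low glucose (adjusted p = 0.0011), and with chrysin it fell by 0.54 against high glucose (adjusted p = 5.6e-07) and by 0.33 against low glucose (adjusted p = 1.1e-05). The cyclins B1 and B2 thus lay on opposite sides of their low glucose levels in the chrysin libraries. CCNA2, cyclin A2, rose by 0.21 in high glucose and fell by 0.20 with chrysin against high glucose, and its chrysin libraries, at 54.0 to 57.3 FPKM, overlapped those of low glucose, at 53.7 to 57.2 FPKM.

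CDK1, the partner kinase of cyclin B, had 142, 133 and 136 FPKM with chrysin, 154, 144 and 157 FPKM in high glucose, and 138, 132 and 136 FPKM in low glucose. High glucose was highest, and the other two groups overlapped. CDK1 rose by 0.16 ± 0.039 in high glucose against low glucose (adjusted p = 0.013) and fell by 0.14 with chrysin against high glucose (adjusted p = 0.011); without low glucose library 2 the rise had an adjusted p of 0.051. The phosphatases that activate CDK1 fell with chrysin. CDC25C had 13.7, 13.2 and 15.6 FPKM with chrysin, 21.1, 19.2 and 20.5 FPKM in high glucose, and 18.7, 17.9 and 19.8 FPKM in low glucose, and CDC25B had 84.4, 82.7 and 81.2 FPKM with chrysin, 107, 111 and 108 FPKM in high glucose, and 108, 107 and 109 FPKM in low glucose. For both genes every chrysin library lay below all 6 others, and the glucose groups overlapped. With chrysin CDC25C fell by 0.50 ± 0.069 against high glucose (adjusted p = 0.00016) and by 0.40 against low glucose (adjusted p = 0.00064). CDC25B fell by 0.39 ± 0.028 against high glucose (adjusted p = 1.8e-06) and by 0.38 against low glucose (adjusted p = 1.4e-06).

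FOXM1, the transcription factor that activates many G2 genes, went the other way with chrysin. It had 266, 256 and 263 FPKM with chrysin, 204, 200 and 204 FPKM in high glucose, and 193, 180 and 187 FPKM in low glucose. The 3 groups did not overlap. FOXM1 was 1.29-fold higher with chrysin than in high glucose (log2 fold change 0.37 ± 0.029, adjusted p = 3.7e-06) and 1.40-fold higher than in low glucose (0.49, adjusted p = 3.7e-07). Its smaller rise of 0.12 in high glucose against low glucose (adjusted p = 0.012) did not pass without low glucose library 2 (adjusted p = 0.051) or with the GC content and length correction (0.066). In the annotation 15.9% of FOXM1's exon bases lie opposite ITFG2, and the strand setting of the counting was not given in the sources used here.

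AURKA, the kinase of the spindle poles, had 260, 258 and 255 FPKM with chrysin, 259, 252 and 258 FPKM in high glucose, and 188, 191 and 188 FPKM in low glucose. All 6 high glucose libraries, with or without chrysin, lay above the 3 low glucose libraries. AURKA rose by 0.44 ± 0.023 in high glucose against low glucose (adjusted p = 6.8e-07), stood 0.45 higher with chrysin than in low glucose (adjusted p = 1.1e-07), and differed by 0.01 between chrysin and high glucose (adjusted p = 0.83; the sign turned to -0.02 with median-of-ratios scaling). PLK1, which triggers CDK1 activation and spindle assembly, had 175, 165 and 170 FPKM with chrysin, 196, 185 and 179 FPKM in high glucose, and 157, 157 and 147 FPKM in low glucose. The 3 groups did not overlap. Its rise of 0.28 ± 0.040 in high glucose had an adjusted p of 0.00076. With chrysin against low glucose PLK1 was 0.15 higher (adjusted p = 0.010; 0.092 with median-of-ratios scaling). Its fall of 0.13 with chrysin against high glucose (adjusted p = 0.021) did not pass without high glucose library 1 (adjusted p = 0.064), chrysin library 2 (0.080) or chrysin library 3 (0.055), nor with no filter on low values (0.053).

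NEK2, a centrosome kinase, rose by 0.16 in high glucose (adjusted p = 0.022) and fell by 0.19 with chrysin (adjusted p = 0.0039); the rise did not pass without low glucose library 2 (adjusted p = 0.082), high glucose library 2 (0.060) or high glucose library 3 (0.074). CDCA3, which triggers loss of the CDK1 inhibitor WEE1, rose by 0.21 in high glucose (adjusted p = 0.0013) and was 0.18 higher with chrysin than in low glucose (adjusted p = 0.0014). CKS2, a small subunit bound to CDK1, rose by 0.23 in high glucose (adjusted p = 0.0017), and its fall of 0.13 with chrysin (adjusted p = 0.015) did not pass without chrysin library 1 (0.059). CKS2 was 0.10 higher with chrysin than in low glucose (adjusted p = 0.054), and it passed when high glucose library 1 (0.036) or 2 (0.038) or low glucose library 2 (0.036) was left out, with a floor of 5 FPKM (0.037) and with the 2 groups fitted alone (0.033). CKS1B, its relative, was 0.13 higher with chrysin than in high glucose (adjusted p = 0.016), which did not pass without chrysin library 1 (0.069), chrysin library 3 (0.052) or high glucose library 2 (0.064), nor with median-of-ratios scaling (0.060) or the GC content and length correction (0.13).

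**Figure D4:**
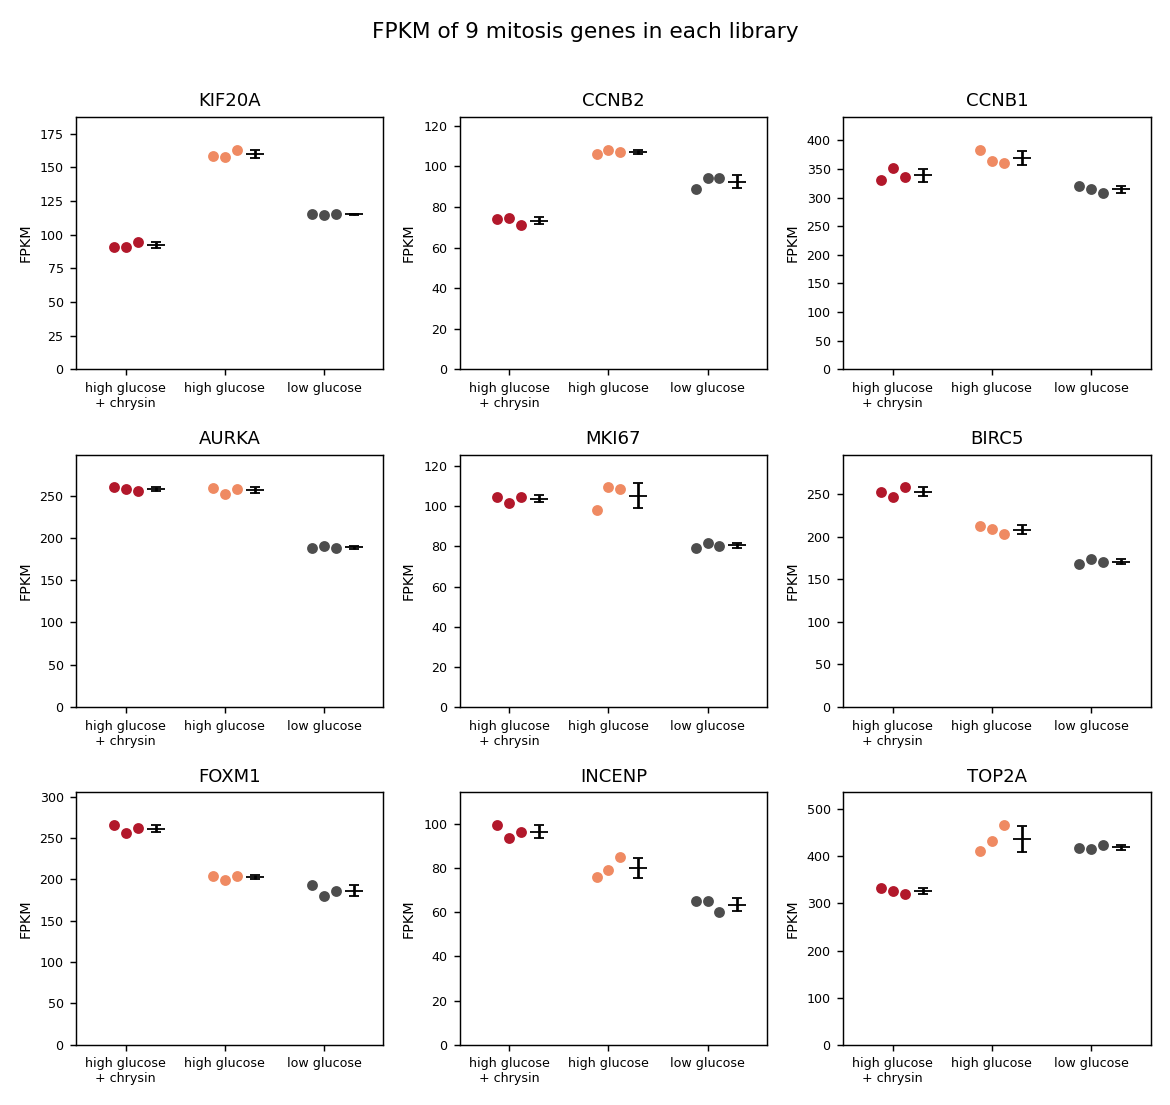
FPKM of 9 members in each library, with the mean ± SD (n = 3) beside each group; every y axis starts at 0. KIF20A and CCNB2 were lowest with chrysin, AURKA and MKI67 were alike with chrysin and in high glucose and lowest in low glucose, and BIRC5, FOXM1 and INCENP were highest with chrysin.

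Of the 8 spindle checkpoint and anaphase-promoting complex members, 2 rose in high glucose against low glucose. With chrysin 4 fell and 1 rose against high glucose, and 3 were lower and 1 higher than in low glucose. With 8 members, these counts were not tested against the shares of all genes given above. UBE2C, the ubiquitin-conjugating enzyme of the anaphase-promoting complex, had 363, 377 and 368 FPKM with chrysin, 455, 432 and 442 FPKM in high glucose, and 469, 446 and 427 FPKM in low glucose. Its chrysin libraries lay below all others. UBE2C fell by 0.26 ± 0.035 with chrysin against high glucose (adjusted p = 0.00014) and by 0.28 against low glucose (adjusted p = 7.4e-05). PTTG1, securin, which holds separase inactive until anaphase, had 161, 155 and 161 FPKM with chrysin, 195, 186 and 188 FPKM in high glucose, and 169, 179 and 164 FPKM in low glucose. Each group stood clear of the others, high glucose highest. PTTG1 rose by 0.15 ± 0.036 in high glucose (adjusted p = 0.011), fell by 0.25 with chrysin against high glucose (adjusted p = 0.00019) and was 0.10 lower with chrysin than in low glucose (adjusted p = 0.033). That last difference did not pass without low glucose library 1 (0.058) or 2 (0.14), without chrysin library 1 (0.056), 2 (0.12) or 3 (0.052), nor with no filter (0.070). Its near copies PTTG2 and PTTG3P reached at most 0.134 and 0.259 FPKM in any library.

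The checkpoint kinases and their partners did not all move the same way. CDC20, the activator of the anaphase-promoting complex, rose by 0.23 ± 0.060 in high glucose (adjusted p = 0.019), and this did not pass without low glucose library 1 (0.071), high glucose library 1 (0.063) or high glucose library 2 (0.056), nor with no filter (0.065). With chrysin CDC20 passed against high glucose only without chrysin library 1 (adjusted p = 0.024, beside 0.18 with it), and against low glucose without chrysin library 2 (0.040) and by voom (0.038), beside 0.11. BUB1, a checkpoint kinase, was 0.11 higher with chrysin than in high glucose (adjusted p = 0.016; 0.057 with median-of-ratios scaling, 0.054 without chrysin library 1 and 0.058 without library 3 of that group) and 0.20 higher than in low glucose (adjusted p = 0.00047). BUB1 was also 0.09 higher in high glucose than in low glucose (adjusted p = 0.084), and passed at 0.11 without high glucose library 1 (0.043) and with the GC content and length correction (0.036). BUB1B, its relative BubR1, and MAD2L1, which binds CDC20, fell by 0.18 (adjusted p = 0.011) and 0.16 (adjusted p = 0.0074) with chrysin against high glucose. BUB1B was 0.14 higher in high glucose than in low glucose (adjusted p = 0.053), and passed when high glucose library 1 (0.028) or low glucose library 1 (0.023) was left out, by voom (0.025), with a floor of 5 FPKM (0.029) and with the GC content and length correction (0.032). MAD2L1 was 0.10 higher in high glucose (adjusted p = 0.088; 0.027 with that correction) and 0.06 lower with chrysin than in low glucose (adjusted p = 0.27; 0.034 with median-of-ratios scaling). BUB3 was 0.14 lower with chrysin than in low glucose (adjusted p = 0.0058; 0.082 with the GC content and length correction). BUB3 was 0.09 lower in high glucose than in low glucose (adjusted p = 0.072). It passed without high glucose library 3 (0.049), with median-of-ratios scaling (0.022), by voom (0.034) and, just under 0.05, with a floor of 5 FPKM. TTK, the kinase MPS1, had log2 fold changes of 0.14 in high glucose against low glucose (adjusted p = 0.062), -0.09 with chrysin against high glucose (adjusted p = 0.16) and 0.05 with chrysin against low glucose. Without high glucose library 1 TTK passed as a rise of 0.18 in high glucose (0.021) and a fall of 0.13 with chrysin against high glucose (0.043), and the rise also passed by voom (0.034), with a floor of 5 FPKM (0.037) and with the GC content and length correction (0.032).

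All 4 members of the chromosomal passenger complex, which corrects chromosome attachment and guides cytokinesis, rose in high glucose against low glucose, while with chrysin 2 rose and 2 fell against high glucose. INCENP, its scaffold, had 99.2, 93.4 and 96.3 FPKM with chrysin, 75.7, 79.2 and 84.7 FPKM in high glucose, and 65.1, 64.9 and 60.0 FPKM in low glucose. BIRC5, survivin, had 253, 247 and 258 FPKM with chrysin, 213, 209 and 203 FPKM in high glucose, and 168, 174 and 170 FPKM in low glucose. For both genes the groups did not overlap, with chrysin highest and low glucose lowest. INCENP rose by 0.33 ± 0.047 in high glucose (adjusted p = 0.00067) and by a further 0.27 with chrysin (adjusted p = 0.00082), which left it 1.52-fold higher with chrysin than in low glucose (adjusted p = 2.2e-06). BIRC5 rose by 0.29 ± 0.028 in high glucose (adjusted p = 6.8e-05) and by 0.28 with chrysin against high glucose (adjusted p = 1.9e-05), and was 1.48-fold higher with chrysin than in low glucose (adjusted p = 1.0e-07).

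AURKB, the kinase of that complex, had 117, 112 and 118 FPKM with chrysin, 147, 133 and 134 FPKM in high glucose, and 128, 119 and 128 FPKM in low glucose. Its chrysin libraries were lowest. AURKB fell by 0.25 ± 0.043 with chrysin against high glucose (adjusted p = 0.00079). Against low glucose it was 0.11 lower (adjusted p = 0.054), and it passed when high glucose library 1 (0.017) or low glucose library 2 (0.026) was left out, with median-of-ratios scaling (0.0083), by voom (0.044), with a floor of 5 FPKM (0.035), with the 2 groups fitted alone (0.025) and with the GC content and length correction (0.0078). Its rise of 0.14 in high glucose (adjusted p = 0.040) did not pass without high glucose library 1 (0.098) or without any single low glucose library (0.062, 0.14 and 0.054 for libraries 1, 2 and 3), nor without chrysin library 1 (0.054) or 3 (0.056). It did not pass either with no filter (0.099), median-of-ratios scaling (0.097) or the 2 groups fitted alone (0.066). CDCA8, borealin, rose by 0.34 ± 0.038 in high glucose (adjusted p = 0.00014), and was 0.24 higher with chrysin than in low glucose (adjusted p = 0.00036). Its fall of 0.11 with chrysin against high glucose (adjusted p = 0.039) did not pass without low glucose library 3 (0.053), any high glucose library (0.061, 0.089 and 0.074 for libraries 1, 2 and 3), chrysin library 1 (0.14) or chrysin library 3 (0.069), nor with no filter (0.054).

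The 3 centromere and kinetochore members fell with chrysin against high glucose. In high glucose against low glucose their log2 fold changes were 0.11 for CENPF (adjusted p = 0.19), 0.12 for CENPE (adjusted p = 0.18) and 0.13 for CENPA (adjusted p = 0.057), and without high glucose library 1 all 3 passed as rises, CENPF at 0.19 (0.0023), CENPE at 0.19 (0.0062) and CENPA at 0.15 (0.039). The GC content and length correction also called them, at 0.0060, 0.015 and 0.042 for CENPF, CENPE and CENPA, and a floor of 5 FPKM called CENPA (0.040). CENPF, a large kinetochore protein, had 131, 125 and 122 FPKM with chrysin and 152, 153 and 154 FPKM in low glucose, and fell by 0.39 ± 0.056 with chrysin against high glucose (adjusted p = 0.00023) and by 0.28 against low glucose (adjusted p = 0.0018). CENPA, the centromere histone, fell by 0.17 against high glucose (adjusted p = 0.0070). CENPE, a kinetochore motor, fell by 0.16 (adjusted p = 0.043), and its adjusted p lay between 0.056 and 0.15 without any single library other than high glucose library 1, and was 0.082 with no filter and 0.074 with the 2 groups fitted alone.

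Among the 11 kinesins, motors that move along microtubules, 5 rose and 0 fell in high glucose against low glucose (7 higher and 0 lower at an unadjusted p under 0.05, 6 and 0 by voom), and with chrysin 7 fell and 1 rose against high glucose. KIF20A, also called MKLP2, which carries the passenger complex to the central spindle, lies at chr5:138178719-138187715 (hg38, plus strand). It had 91.0, 91.0 and 94.9 FPKM with chrysin, 159, 158 and 163 FPKM in high glucose, and 115, 115 and 115 FPKM in low glucose. The groups stood far apart relative to their spread, with chrysin lowest. KIF20A was 1.39-fold higher in high glucose than in low glucose (log2 fold change 0.47 ± 0.028, adjusted p = 1.8e-06), and with chrysin it was 1.73-fold lower than in high glucose (-0.79, adjusted p = 1.6e-08) and 1.25-fold lower than in low glucose (-0.32, adjusted p = 4.7e-06). No other member rose by more in high glucose against low glucose, and no other fell by more with chrysin against high glucose.

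KIFC1, a minus-end motor that clusters spindle poles, had 132, 139 and 135 FPKM with chrysin, 143, 145 and 143 FPKM in high glucose, and 106, 109 and 106 FPKM in low glucose. The 3 groups did not overlap, but chrysin and high glucose lay close together. KIFC1 rose by 0.43 ± 0.028 in high glucose (adjusted p = 3.5e-06) and was 0.34 higher with chrysin than in low glucose (adjusted p = 2.7e-06). Its fall of 0.09 with chrysin against high glucose (adjusted p = 0.024) did not pass without high glucose library 2 (0.064), chrysin library 1 (0.098) or chrysin library 3 (0.061), nor with the GC content and length correction (0.094). KIF18A, which limits microtubule growth at kinetochores, had 43.9, 46.6 and 45.4 FPKM with chrysin, 38.8, 40.8 and 42.0 FPKM in high glucose, and 41.2, 40.3 and 41.0 FPKM in low glucose. It was the single kinesin that rose with chrysin against high glucose (0.16 ± 0.040, adjusted p = 0.0070). It was also 0.15 higher with chrysin than in low glucose (adjusted p = 0.0093; 0.072 with median-of-ratios scaling).

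KIF11, the motor that separates spindle poles, rose by 0.31 in high glucose (adjusted p = 0.0015) and fell by 0.26 with chrysin (adjusted p = 0.0016; against low glucose it passed, at 0.11, only with the GC content and length correction, 0.035), and KIF2C, which takes microtubules apart at centromeres, rose by 0.26 (adjusted p = 0.00013) and fell by 0.13 (adjusted p = 0.0036). KIF15 and KIF22 were lower with chrysin than in either glucose group, KIF15 by 0.26 against high glucose (adjusted p = 0.00090) and 0.31 against low glucose (adjusted p = 0.00021), and KIF22 by 0.30 (adjusted p = 0.00020) and 0.20 (adjusted p = 0.0029). KIF20B fell by 0.17 with chrysin against high glucose (adjusted p = 0.025), a call not passed without high glucose library 2 (0.078), high glucose library 3 (0.092) or chrysin library 3 (0.10), and its rise of 0.16 in high glucose had an adjusted p of 0.0496 and was lost under 13 of the 18 other settings, without any single library other than high glucose library 1 among them. KIF4A was 0.15 higher with chrysin than in low glucose (adjusted p = 0.0068; 0.066 with median-of-ratios scaling), and its near copy KIF4B reached at most 0.186 FPKM. KIF4A was 0.10 higher in high glucose than in low glucose (adjusted p = 0.075), and passed without low glucose library 2 (0.048), by voom (0.045) and with the GC content and length correction (0.039). KIF14, which acts late in cytokinesis, was 0.13 higher in high glucose than in low glucose (adjusted p = 0.18; 0.025 without high glucose library 1 and 0.033 with that correction). KIF14 was also 0.16 higher with chrysin than in low glucose (adjusted p = 0.061), and passed without high glucose library 1 (0.018) or 3 (0.047), by voom (0.0085), with a floor of 5 FPKM (0.049), with the 2 groups fitted alone (0.023) and with the correction (0.0031). KIF23, of the centralspindlin complex, did not pass either: it had 138 to 144 FPKM with chrysin, 142 to 146 FPKM in high glucose and 139 to 145 FPKM in low glucose, and its log2 fold changes lay between -0.02 and 0.02.

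Of the 6 spindle proteins, 4 rose and 0 fell in high glucose against low glucose, and the counts were the same with chrysin against low glucose; the unadjusted p and voom gave these counts as well. With chrysin against high glucose 0 passed in either direction by limma, and by voom or at an unadjusted p 1 was higher. GTSE1, which holds microtubule tips and restrains p53 in G2, had 84.8, 87.6 and 86.0 FPKM with chrysin, 82.9, 82.1 and 85.9 FPKM in high glucose, and 65.4, 65.4 and 66.2 FPKM in low glucose. Chrysin and high glucose libraries overlapped, and all lay above low glucose. GTSE1 rose by 0.35 ± 0.029 in high glucose (adjusted p = 2.6e-05) and was 0.39 higher with chrysin than in low glucose (adjusted p = 1.7e-06). TPX2, the activator of AURKA, passed with chrysin against high glucose only under median-of-ratios scaling (-0.08, 0.039). TPX2 rose by 0.25 in high glucose (adjusted p = 0.00012) and was 0.20 higher with chrysin than in low glucose (adjusted p = 0.00011). DLGAP5, a spindle stabiliser, rose by 0.31 in high glucose (adjusted p = 0.00022) and was 0.26 higher with chrysin than in low glucose (adjusted p = 0.00015). ASPM, of the spindle poles, rose by 0.23 in high glucose (adjusted p = 0.020), which did not pass without low glucose library 1 (0.057), low glucose library 2 (0.053), high glucose library 2 (0.073) or high glucose library 3 (0.067), nor with no filter (0.054). HMMR, a spindle and hyaluronan-binding protein, had log2 fold changes between -0.03 and 0.01 and passed in no comparison.

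NUSAP1 and PRC1, which bundle spindle and midzone microtubules, were measured near the floor of the table, and their values say little about these genes. NUSAP1 had 0.687, 0.639 and 0.598 FPKM with chrysin, 0.424, 0.288 and 0.307 FPKM in high glucose, and 0.636, 0.365 and 0.278 FPKM in low glucose, on 8 to 20 reads a library. PRC1 had 2.11, 2.93 and 2.05 FPKM with chrysin, 1.39, 2.34 and 1.60 FPKM in high glucose, and 1.95, 2.23 and 1.83 FPKM in low glucose, on 30 to 58 reads. Neither passed in any comparison by limma on all libraries. With chrysin against high glucose PRC1 was 0.34 higher (adjusted p = 0.14; 0.033 without high glucose library 2) and NUSAP1 0.45 higher (adjusted p = 0.085; 0.049 by voom). In GENCODE 29, NUSAP1 shares 62.2% of its exon bases with the protein-coding gene AC087721.2 on the same strand, and PRC1 shares 57.6% with AC068831.7; AC087721.2 was listed at 0 in every library, and the part of these overlaps in the low values was not tested.

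Of the 4 midzone and cytokinesis proteins, 1 rose and 0 fell in high glucose against low glucose (2 and 0 at an unadjusted p under 0.05, 1 and 0 by voom), and with chrysin against high glucose 0 passed in either direction by limma, by voom or at an unadjusted p under 0.05. RACGAP1, the centralspindlin partner of KIF23, had 207, 212 and 208 FPKM with chrysin, 197, 204 and 209 FPKM in high glucose, and 164, 171 and 165 FPKM in low glucose. Low glucose lay below all 6 other libraries, which overlapped each other. RACGAP1 rose by 0.29 ± 0.029 in high glucose (adjusted p = 8.5e-05) and was 0.33 higher with chrysin than in low glucose (adjusted p = 5.5e-06). ECT2, the exchange factor that starts the cleavage furrow, was 0.09 higher in high glucose than in low glucose (adjusted p = 0.084) and 0.06 lower with chrysin than in high glucose (adjusted p = 0.17). Without high glucose library 1 both passed, ECT2 at 0.13 (0.0083) and -0.10 (0.014); the first also passed with the GC content and length correction (0.0105), which called ECT2 with chrysin against low glucose too (0.08, 0.034), and the second with median-of-ratios scaling (0.048). ANLN was 0.08 higher in high glucose than in low glucose (adjusted p = 0.17) and 0.03 lower with chrysin than in high glucose (adjusted p = 0.53), and without high glucose library 1 it passed in both, at 0.14 (0.00066) and -0.09 (0.0025). With chrysin against low glucose ANLN was 0.05 higher (adjusted p = 0.34; 0.025 without high glucose library 1, 0.032 with the 2 groups fitted alone and 0.013 with the correction, which also called the high glucose difference, 0.019).

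The 6 chromosome structure members separated into 1 gene that stayed high and 5 that fell with chrysin against high glucose. MKI67, the proliferation marker Ki-67 that coats mitotic chromosomes, had 105, 102 and 105 FPKM with chrysin, 98.1, 109 and 109 FPKM in high glucose, and 79.5, 81.9 and 80.1 FPKM in low glucose. Low glucose was lowest, and the other two groups overlapped. MKI67 was 1.31-fold higher in high glucose than in low glucose (log2 fold change 0.38 ± 0.041, adjusted p = 0.00012) and 1.29-fold higher with chrysin than in low glucose (adjusted p = 3.0e-05); with chrysin against high glucose its log2 fold change was -0.02 (adjusted p = 0.72), and 0.01 without high glucose library 2. TOP2A, the topoisomerase that untangles sister chromatids, had 333, 327 and 321 FPKM with chrysin, 410, 433 and 466 FPKM in high glucose, and 417, 415 and 425 FPKM in low glucose. Here chrysin lay below all others and the glucose groups overlapped. TOP2A was 1.33-fold lower with chrysin than in high glucose (-0.41 ± 0.040, adjusted p = 1.3e-05) and 1.28-fold lower than in low glucose (adjusted p = 2.6e-05). TOP2A passed in high glucose against low glucose only with the GC content and length correction (0.09, 0.025). In the chrysin libraries MKI67 and TOP2A, both markers of dividing cells, lay on opposite sides of their low glucose levels.

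NCAPD2, a condensin subunit, had 317, 314 and 305 FPKM with chrysin, 373, 380 and 382 FPKM in high glucose, and 350, 349 and 348 FPKM in low glucose. The 3 groups did not overlap, with chrysin lowest and high glucose highest. NCAPD2 rose by 0.12 ± 0.023 in high glucose (adjusted p = 0.0050), fell by 0.28 with chrysin against high glucose (adjusted p = 5.1e-06) and was 0.16 lower with chrysin than in low glucose (adjusted p = 0.00017). The condensin core subunits SMC2 and SMC4 fell by 0.32 (adjusted p = 0.00063) and 0.17 (adjusted p = 0.019) with chrysin against high glucose, and the call of SMC4 was lost without high glucose library 2 (0.078), high glucose library 3 (0.073) or chrysin library 3 (0.061), or with no filter (0.059). SMC2 was 0.07 higher in high glucose than in low glucose (adjusted p = 0.42), and passed at 0.13 without high glucose library 1 (0.044). The strand setting being unknown, the annotation's opposite-strand overlaps limit both SMC4, with 18.5% of its exon bases opposite TRIM59 and 7.2% opposite IFT80, and NCAPG, with 33.1% opposite LCORL. The same limit holds for KIF22 (13.0% opposite AC009133.4), KIFC1 (12.7% opposite RPL12P1) and PLK1 (11.6% opposite AC008870.3). On the same strand BUB1B shares 10.2% with BUB1B-PAK6, and CENPA shares 7.0% with SLC35F6. Some other members share smaller parts, and the part of these overlaps was not tested. NCAPG, another condensin subunit, fell by 0.21 (adjusted p = 0.00070), and its rise of 0.13 in high glucose (adjusted p = 0.025) did not pass on leaving out low glucose library 1 (0.095) or high glucose library 3 (0.078), nor with median-of-ratios scaling (0.077). NCAPG was 0.08 lower with chrysin than in low glucose (adjusted p = 0.080), and passed when low glucose library 1 (0.041) or chrysin library 1 (0.040) was left out, and with median-of-ratios scaling (0.0090).

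For genes outside the 55, the shares to set beside each count are those of all genes tested: 14.6% higher and 8.91% lower in high glucose against low glucose, 24.9% and 20.9% with chrysin against high glucose, and 29.7% and 21.3% with chrysin against low glucose. Of 50 other mitosis genes, 27 rose and 0 fell in high glucose against low glucose (32 and 2 at an unadjusted p under 0.05, 29 and 0 by voom), 5 rose and 20 fell with chrysin against high glucose, and 20 were higher and 9 lower with chrysin than in low glucose. TACC3, a spindle protein phosphorylated by AURKA, rose by 0.35 in high glucose (adjusted p = 6.1e-05) and was 0.52 higher with chrysin than in low glucose (adjusted p = 6.6e-07). DEPDC1B, which acts on cell adhesion before mitosis, fell by 0.70 with chrysin against high glucose (adjusted p = 2.7e-06), and CENPK, a kinetochore protein, by 0.47 (adjusted p = 6.9e-06). Of 15 subunits of the anaphase-promoting complex, 2 rose and 1 fell in high glucose, and 4 rose and 4 fell with chrysin against high glucose, shares near those of all genes; ANAPC2 rose in both and stood 0.57 higher with chrysin than in low glucose (adjusted p = 5.0e-06). Of 12 cohesin genes, 3 rose in high glucose, and with chrysin 3 rose and 3 fell against high glucose; CDCA5, sororin, rose by 0.26 in high glucose (adjusted p = 0.00044) and by 0.31 with chrysin against high glucose (adjusted p = 3.9e-05).

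Of 16 genes that control the transcription of mitosis genes or hold CDK1 inactive, 1 rose and 3 fell in high glucose against low glucose, 3 rose and 6 fell with chrysin against high glucose, and 2 were higher and 6 lower with chrysin than in low glucose. WEE1, the kinase that holds CDK1 inactive, had 38.7, 41.3 and 42.4 FPKM with chrysin, 50.7, 52.4 and 50.5 FPKM in high glucose, and 60.8, 61.6 and 63.8 FPKM in low glucose. Its groups did not overlap, with chrysin lowest and low glucose highest. WEE1 fell by 0.27 ± 0.040 in high glucose (adjusted p = 0.00082) and by 0.32 with chrysin against high glucose (adjusted p = 8.2e-05). CDKN1B, the inhibitor p27, fell by 0.28 in high glucose (adjusted p = 0.00013) and by 0.17 with chrysin against high glucose (adjusted p = 0.00099), and E2F7, a repressor of E2F targets, by 0.36 (adjusted p = 0.0011) and 0.29 (adjusted p = 0.0014). CDKN1A, the inhibitor p21, did not pass, with log2 fold changes of 0.04 in high glucose against low glucose and -0.12 with chrysin against high glucose (adjusted p = 0.12; 0.039 without chrysin library 1 and 0.048 by voom). MYBL2, which encodes B-MYB, was 0.14 lower with chrysin than in low glucose (adjusted p = 0.012; 0.0505 without chrysin library 1) and 0.09 lower than in high glucose (adjusted p = 0.080; 0.0052 without high glucose library 3, 0.027 with median-of-ratios scaling and 0.026 by voom). MYBL2 passed in high glucose against low glucose only with the GC content and length correction (-0.10, 0.024). E2F1 was 0.21 lower in high glucose than in low glucose (adjusted p = 0.068), and passed without high glucose library 1 (0.022), by voom (0.0088), with a floor of 5 FPKM (0.033), with median-of-ratios scaling (0.044) and with the correction (0.0080). E2F1 was 0.25 higher with chrysin than in high glucose (adjusted p = 0.021), which did not pass without chrysin library 2 (0.059) or chrysin library 3 (0.071), nor with no filter (0.060).

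Of 31 genes of G1 and S phase tested, which act before the 55 members in the cycle, 15 rose and 3 fell in high glucose against low glucose, 8 rose and 14 fell with chrysin against high glucose, and 12 were higher and 12 lower with chrysin than in low glucose. The 8 rises are a share near that of all genes tested. CCND1, cyclin D1, had 328, 335 and 328 FPKM with chrysin, 185, 181 and 175 FPKM in high glucose, and 136, 140 and 125 FPKM in low glucose. Its groups stood far apart, with chrysin highest. CCND1 rose by 0.43 ± 0.039 in high glucose (adjusted p = 3.7e-05) and by 0.87 with chrysin against high glucose (adjusted p = 7.2e-08). RRM2, which makes deoxynucleotides in S phase, had 211, 215 and 209 FPKM with chrysin, 350, 350 and 349 FPKM in high glucose, and 304, 309 and 309 FPKM in low glucose. With chrysin RRM2 was lowest, and it fell by 0.72 ± 0.022 against high glucose (adjusted p = 5.5e-09).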

How the data were processed

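The authors deposited a table of FPKM values per gene and library (fragments for each kilobase of transcript, relative to all fragments in the library), with gene symbols and no counts. Tools listed in the submitters' processing notes are HTSeq 0.13.5, StringTie 2.2.1, HISAT2 2.2.1 and fastp 0.23.4, with the build hg38. Which tool made the values, the annotation and the strand setting are not stated there or in the labels. The members, the role groups and the other gene lists were chosen with earlier results of these data known.

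Genes that averaged 0.5 FPKM or more in at least 1 group were tested on log2(FPKM + 0.5) with limma 3.58.1 (R 4.3.3, trended prior) in 1 fit of all 9 libraries, with Benjamini-Hochberg adjustment over all 16996 genes and a threshold of 0.05. Adding 0.5 understates the change of low genes. Whole reads were recovered from the steps of the FPKM values for 28230 of 28230 genes above 0 in at least 2 libraries (100%, within 0.002 reads), and limma voom was run on them. For each gene the smallest whole numbers that fit were taken, so its true reads could be a multiple of these. The 4119 genes above 0 in 1 library were set to 1 read there. Read numbers and library depths are therefore lower bounds. On all genes voom called 2854 higher and 1800 lower in high glucose against low glucose, 4521 and 3780 with chrysin against high glucose, and 5236 and 3748 with chrysin against low glucose. Values in every library are given for CDK1, CCNB1, AURKA, PLK1, MKI67, TOP2A and FOXM1, for the 4 called members with the largest rise and fall in each comparison, and for the smallest p in each role; from each other list up to 3 called genes with the smallest p are named. E2F1, MYBL2, WEE1 and CDKN1A are named whatever their values. Coordinates and exon overlaps come from GENCODE 29, promoters from RefSeq. The fit was also run on simulated reads. These had the same spread setting for every gene and no length difference like that of high glucose library 1, so no conclusion is drawn from that run.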

Additional observations from a re-analysis of the deposited data

How the results depend on the processing

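The alternatives were other pseudocounts (0.1 and 1), no filter or a floor of 5 FPKM on the mean, median-of-ratios scaling, voom, a replicate block, the compared groups alone, an adjusted p under 0.01, each library left out, and a GC content and length correction chosen after the data were seen. The count of members higher ran from 24 to 37 in high glucose against low glucose, from 4 to 6 with chrysin against high glucose and from 18 to 22 with chrysin against low glucose when single libraries were left out, and the count lower ran from 0 to 1, from 24 to 31 and from 13 to 15. The member lower in high glucose against low glucose numbered 1 with the floor of 5 FPKM, with median-of-ratios scaling, with voom and without high glucose library 3. With chrysin against low glucose the median log2 fold change turned to -0.0079 under median-of-ratios scaling. The replicate block gave 28 higher and 0 lower in high glucose against low glucose, 6 and 29 with chrysin against high glucose, and 19 and 14 with chrysin against low glucose; same-numbered libraries of different groups had residual correlations of -0.015 to 0.008, so the numbers are not taken as pairs. Under the block PTTG1 with chrysin against low glucose (0.051), CENPE with chrysin against high glucose (0.057) and KIF20B in high glucose against low glucose (0.064) did not pass, and AURKB with chrysin against low glucose did (0.026). At an adjusted p under 0.01 the counts were 20 and 0, 4 and 21, and 17 and 13. Low reads limit NUSAP1 and PRC1. No member or other named gene that passed in the main test changed sign under any setting run. The values below, whose sign turned, passed neither under that setting nor as reported, though with chrysin against low glucose ANLN, ECT2 and KIF11 passed as higher with the GC content and length correction (0.013, 0.034 and 0.035) and MAD2L1 as lower with median-of-ratios scaling (0.034). ANLN also passed without high glucose library 1 and with the groups fitted alone. The cause was not tested. Median-of-ratios scaling in high glucose against low glucose gave CDC25B a log2 fold change of -0.021, KIF23 -0.010, HMMR -0.017, CENPK -0.021 and E2F4 -0.025. Median-of-ratios scaling with chrysin against high glucose gave AURKA a log2 fold change of -0.022 and CDC26 -0.026. Median-of-ratios scaling with chrysin against low glucose gave CCNA2 a log2 fold change of -0.054, CDK1 -0.041, TTK -0.0074, KIF11 -0.0066, KIF23 -0.056, ANLN -0.0079, ECT2 -0.028 and E2F1 -0.022. The GC content and length correction in high glucose against low glucose gave CDC25B a log2 fold change of -0.050, UBE2C 0.018, KIF18A 0.019, SMC4 0.0069, LIN52 0.015 and E2F4 -0.044. The GC content and length correction with chrysin against high glucose gave AURKA a log2 fold change of -0.017, ASPM 0.034, MKI67 0.0005 and CDC26 -0.087. The GC content and length correction with chrysin against low glucose gave MAD2L1 a log2 fold change of 0.0060, CENPE 0.030, KIF20B 0.054 and HMMR 0.017. Leaving out single libraries, the log2 fold changes in high glucose against low glucose ran over these ranges across 0: UBE2C -0.047 to 0.021, NUSAP1 -0.24 to 0.030, CDKN1A -0.0092 to 0.0997, LIN52 -0.018 to 0.0091, CDC25B -0.0057 to 0.021, HMMR -0.0099 to 0.037, CENPK -0.021 to 0.038, E2F4 -0.0092 to 0.017, KIF18A -0.037 to 0.019 and SMC4 -0.064 to 0.046. Leaving out single libraries, the log2 fold changes with chrysin against high glucose ran over these ranges across 0: KIF14 -0.040 to 0.082, AURKA -0.0051 to 0.013, ASPM -0.087 to 0.046, MKI67 -0.070 to 0.0083, CDC26 -0.030 to 0.035, HMMR -0.074 to 0.021 and KIF23 -0.029 to 0.0033. Leaving out single libraries, the log2 fold changes with chrysin against low glucose ran over these ranges across 0: CCNA2 -0.022 to 0.025, BUB1B -0.062 to 0.011, KIF23 -0.011 to 0.022, E2F1 -0.0018 to 0.069, CDK1 -0.0091 to 0.039, KIF20B -0.024 to 0.032 and HMMR -0.063 to 0.032.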
